A study of Mus musculus with 20 samples.

Results

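Tfh-leaning regions are stretches of the mouse genome where DNase-accessible chromatin was found in most libraries of T follicular helper (Tfh) cells and in clearly fewer libraries of other helper T cells from the same immune response. They were selected on the deposited DNase islands of 8 libraries, 4 of Tfh cells (CXCR5highPD1high) and 4 of non-Tfh cells (CXCR5lowPD1low). An island is a run of 200-bp windows with more reads than background. Islands of all libraries were merged into 25755 regions, and a region was kept when 3 or 4 Tfh libraries had an island there and at least 2 fewer non-Tfh libraries did. This left 814 regions, 3.16% of all. Because the islands themselves chose the regions, every difference between Tfh and non-Tfh libraries in them is a description and carries no test.

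The cells came from C57BL/6 mice that carry T-bet-Cre and the reporter Rosa26-loxP-STOP-loxP-tdTomato, in which Cre follows T-bet expression and switches on tdTomato permanently. The mice were immunized with AS15, given in CFA, an oil-based adjuvant, and tetramer-positive cells of draining lymph nodes were sorted on day 16. Each of the populations was split by Tomato into Tomato+ and Tomato- cells (Toma+ and Toma- in the labels), with 2 DNase libraries and 2 RNA libraries in each of the 4 groups. Tomato thus marks T-bet expression at the time of sorting or earlier. Age, sex, the number of animals and any pooling are not stated in the labels, and nothing says that the replicates came from separate animals, so the spread between them may be technical.

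Tfh cells are the CD4 T cells that enter B cell follicles, follow the chemokine signal read by CXCR5, and give B cells the contact and cytokine help that germinal centres need. Their identity rests on the repressor BCL6, while T-bet directs the Th1 programme with interferon gamma as its hallmark cytokine. DNase cuts DNA where nucleosomes are displaced, so clusters of cuts mark promoters, enhancers and other regulatory DNA, and regions open in one T cell lineage and not in a related one are candidates for lineage-specific regulation. No gene positions on the genome build of these files (mm9) were used, so the regions are given by position and not by gene.

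The DNase libraries held 14084 to 21222 islands covering 32.9 to 42.2 Mb, and the read depth behind them is unknown. The fewest islands among Tfh libraries were in Tomato+ replicates 1 and 2 (14084 and 15374), against 18742 and 17531 in Tomato- replicates 1 and 2. In non-Tfh cells the order was the opposite, with 20460 and 21222 islands in Tomato+ and 18061 and 14980 in Tomato- replicates 1 and 2. Median island widths were 2000 to 2400 bp in Tfh libraries and 1400 to 2200 bp in non-Tfh libraries. These ranges overlapped, since non-Tfh Tomato- replicate 2 (2200 bp) stood above both Tfh Tomato- libraries (2000 bp each). No 2 libraries were identical, and the Jaccard index over 200-bp bins ran from 0.417 to 0.524 between pairs of libraries.

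RNA of the same gates matched the names of the populations. Cxcr5, the follicle-homing receptor gene, was at 258 to 394 RPKM in the 4 Tfh RNA libraries and 27.8 to 113 RPKM in the 4 non-Tfh ones. Pdcd1, which encodes PD1, was at 542 to 715 against 89.9 to 183 RPKM, and Bcl6 at 95.2 to 139 against 21.1 to 31.6 RPKM. The T cell genes Cd4 (340 to 444 RPKM) and Cd3e (197 to 300 RPKM) were high in all 8 libraries. Tbx21, the gene of T-bet, was at 53.0 to 183 RPKM in Tomato+ and 10.4 to 12.9 RPKM in Tomato- libraries, and Ifng at 87.2 to 296 against 1.03 to 10.5 RPKM. Transcripts of other cells were present too: the macrophage gene Lyz2 was at 666 to 948 RPKM in the Tomato- and 63.9 to 244 RPKM in the Tomato+ libraries, and the B cell genes Cd79a (28.4 to 61.8 RPKM) and Ms4a1 (0.95 to 14.9 RPKM) were detected throughout. The CD8 gene Cd8a stood at 2.51 to 14.7 RPKM and the NK receptor gene Ncr1 at 0 to 7.03 RPKM. In such bulk samples fewer cells of a type and less RNA per cell cannot be told apart. The part of other cells in the DNase islands was not tested.

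The 814 regions split into 5 occupancy classes. An island in 4 of 4 Tfh libraries and in none of the non-Tfh libraries was found at 68 regions, with 1 non-Tfh library at 108 and with 2 non-Tfh libraries at 215. Islands in 3 of 4 Tfh libraries were found with no non-Tfh library at 201 regions and with 1 at 222. The larger part of the merged regions lay elsewhere: 10598 had an island in all 8 libraries. Just outside the rule stood 630 regions with 4 Tfh and 3 non-Tfh libraries, 352 with 3 and 2, 522 with 2 and 0, and 444 with 2 and 1. The rule applied with the populations exchanged kept 1964 regions, 7.63% of all, more than the Tfh rule did.

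**Figure D1:**
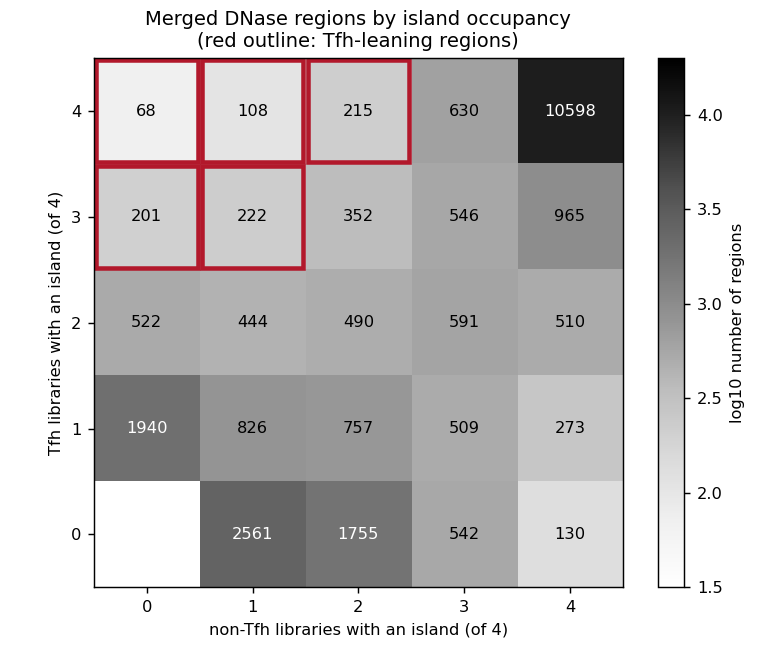
Number of merged regions for each combination of Tfh libraries (vertical, 0 to 4) and non-Tfh libraries (horizontal, 0 to 4) with an island; the grey scale is log10 of the number and red outlines mark the Tfh-leaning classes. The outlined classes hold 68 to 222 regions each, against 10598 with an island in all 8 libraries.

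Both counts moved with the island lists. When every library was reduced to its 14084 highest-scoring islands, the number in the smallest library, 1290 regions leaned to Tfh and 987 to non-Tfh cells, so the order of the counts turned. With the same covered length in each library (32.9 Mb) the counts were 353 and 2356. Leaving out 1 Tfh library, which makes the rule stricter for Tfh cells, gave 192 to 376 Tfh-leaning regions, and leaving out 1 non-Tfh library gave 1220 to 1626. The number 814 therefore describes these 8 island lists under this rule.

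A region stood just inside or just outside the rule when 1 island more or less in a single library would have changed its side, and the first 4 of each in genome order are given. At chr1:34061401-34064600, inside, the authors' island score was 62.7 in Tfh Tomato+ replicate 1, 67.7 in Tfh Tomato- replicate 1, 50.9 in Tfh Tomato- replicate 2 and 41.4 in non-Tfh Tomato+ replicate 2, with no island in the other libraries. At chr1:16654201-16657600, inside, the 4 Tfh libraries had scores of 52.6 to 78.7, and both non-Tfh Tomato+ replicates had islands (57.0 and 40.3). Also inside were chr1:35635801-35638400, with Tfh scores of 41.9 to 69.0 and islands in both non-Tfh Tomato- replicates (75.8 and 61.8), and chr1:39706001-39709200, with islands in 3 Tfh libraries (47.4, 65.8 and 72.0) and in no non-Tfh library.

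Just outside, chr1:20748201-20752200 had Tfh scores of 48.5 to 86.2 and non-Tfh islands of 49.9, 117 and 145. The region at chr1:20940001-20944000 had Tfh scores of 53.4 to 86.2 and non-Tfh islands of 39.7, 43.2 and 50.4. At chr1:16167001-16169000 there were 3 Tfh islands (51.5 to 65.1) and 2 non-Tfh islands (43.3 and 53.3). At chr1:13114401-13120000 the islands were those of Tfh Tomato+ replicate 1 (64.9) and Tfh Tomato- replicate 1 (43.6) alone. All 4 were thus as close to the rule as the 4 inside.

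By class, the median score percentile within the Tfh libraries was 27.5, 27.8 and 30.2 for regions with 4 Tfh libraries and 0, 1 and 2 non-Tfh libraries, and 19.0 and 20.7 for those with 3 Tfh libraries and 0 and 1. The classes just outside were close to these, at 32.0 with 4 Tfh and 3 non-Tfh libraries, 20.6 with 3 and 2, 14.9 with 2 and 0, and 15.0 with 2 and 1, while regions of all 8 libraries stood at 67.1.

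Tfh-leaning regions held mostly low-scoring islands. Ranked within its own library, the median island in a Tfh-leaning region stood at percentile 17.6 and 19.4 of island scores in Tfh Tomato+ replicates 1 and 2, and at percentile 31.7 and 26.7 in Tfh Tomato- replicates 1 and 2. Islands in regions open in all 8 libraries stood at percentile 60.4 to 69.2 in the same libraries. In the Tfh libraries 84.4% to 95.5% of islands in Tfh-leaning regions scored below their library's median, and only 0 to 6 islands per library reached its top 25%. Where a non-Tfh library had an island in one of these regions, its median percentile was 17.2 to 20.1. Regions of the mirrored rule were alike, with medians of 16.1 to 33.0 in the non-Tfh libraries. Low scores are thus not particular to Tfh-leaning regions.

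**Figure D2:**
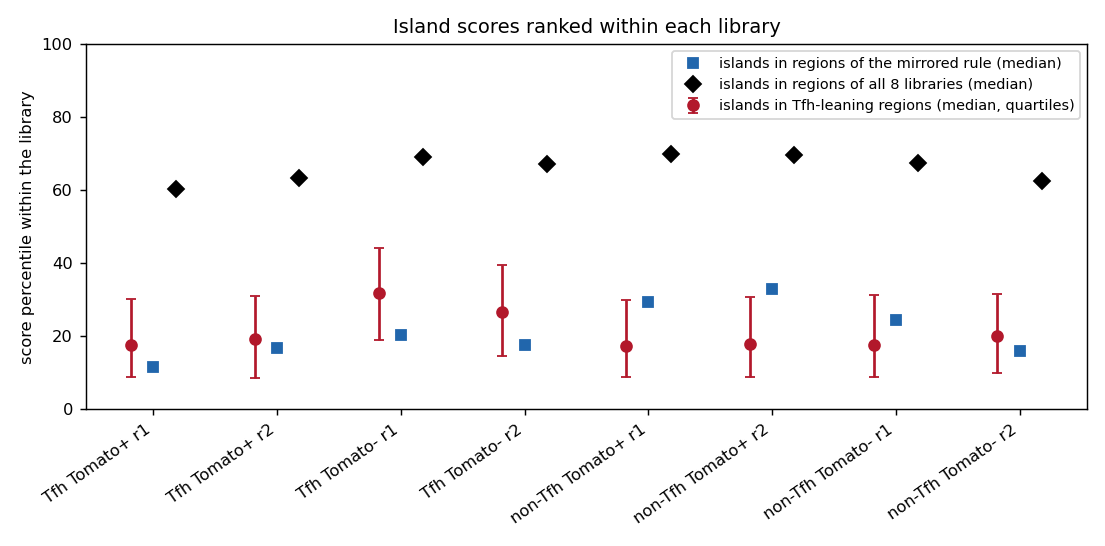
Score percentile within each library (vertical, 0 to 100) of islands in Tfh-leaning regions (red, median with quartiles), in regions of the mirrored rule (blue squares, median) and in regions of all 8 libraries (black diamonds, median), for each of the 8 libraries on the horizontal axis. Islands in Tfh-leaning regions have medians of 17.2 to 31.7, below those of regions open in all 8 libraries (60.4 to 69.8).

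When only islands at or above their library's median score were used, 388 regions leaned to Tfh, but only 17 of the 814 were kept, and the 388 overlapped 330 of the regions that had islands in all 8 libraries before. With the highest 25% of scores 215 regions leaned to Tfh and none of the 814 was kept. With 14084 islands in each library 424 of the 814 (52.1%) were kept. By class, 56 of the 68 regions with 4 Tfh and no non-Tfh libraries were kept, as were 87 of 108 and 169 of 215 with 4 Tfh libraries and 1 or 2 non-Tfh libraries, against 53 of 201 and 59 of 222 with 3 Tfh libraries. A region with 3 Tfh libraries fails the rule once any of them loses its island. One with 4 Tfh and at most 1 non-Tfh library can lose 1 and still pass. The contrast between these classes was therefore partly built into the rule. With equal covered length 214 were kept. These settings only remove islands, and the 814 regions had islands in at most 2 non-Tfh libraries. None could therefore become non-Tfh-leaning, and none did.

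How many regions kept the direction of the lean varied with the island lists. Of the 814 regions 775 (95.2%) still had islands in more Tfh than non-Tfh libraries among the 14084 highest-scoring islands of each, 2 had the opposite, and 19 had no Tfh island left. At equal covered length 605 (74.3%) had more Tfh libraries and 45 had more non-Tfh libraries. With islands at or above their library's median score 177 (21.7%) had more Tfh libraries, 18 had more non-Tfh libraries and 625 had no Tfh island left. The direction was fixed by the choice of the regions, so these counts describe how many sat near the lower end of the lists and are no independent support.

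Within a region the islands of different Tfh libraries mostly shared a stretch. In 801 of the 814 regions (98.4%) at least one 200-bp bin was covered by every Tfh library with an island there. The shared part had a median of 1400 bp (quartiles 1000 and 1800 bp) within regions of median width 3800 bp (quartiles 3000 and 4800 bp). Of the 760 non-Tfh libraries' islands in these regions, counted once per region and library, 737 (97.0%) also covered part of it. The mirrored rule gave near-equal shares, with a shared bin in 98.9% of its regions and 98.1% of Tfh islands there over the shared part, so neither share is particular to Tfh-leaning regions. Its regions were narrower, with a median width of 2400 bp and a shared part of 600 bp. Merging islands that touch favours such overlap by construction. Island width also ran lower in non-Tfh libraries, though the ranges of the populations overlapped, and its part in this was not tested.

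The region at chr2:30325401-30330400 ranked first by mean score percentile among the 68 regions with 4 Tfh and no non-Tfh libraries. Its highest island score was 128 and 68.6 in Tfh Tomato+ replicates 1 and 2 and 195 and 114 in Tfh Tomato- replicates 1 and 2, which put it between percentile 22.9 and 83.0 of the libraries. At chr6:100748601-100753200 the scores were 89.3 and 85.5 in Tomato+ and 133 and 152 in Tomato- replicates 1 and 2. Both Tomato- percentiles were above both Tomato+ percentiles there (67.8 and 73.6 against 43.6 and 38.0), whereas at the first region the Tomato states overlapped. The same order held at chr1:179605201-179608400, chr8:79957801-79962600, chr12:74892401-74896600, chr12:78766601-78770000 and chr13:40823001-40830200, and not at the other regions named by score. Islands of the whole set also had higher median percentiles in Tfh Tomato- (31.7 and 26.7) than in Tfh Tomato+ replicates 1 and 2 (17.6 and 19.4). A separate region with islands in all 8 libraries began 4.1 kb from the centre of the chr6 region, so accessible chromatin limited to Tfh libraries lay beside chromatin open in every library.

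At chr7:150152401-150156400 the 4 Tfh islands began 1.6 to 2.0 kb before the centre of the region and ended 1.2 to 2.0 kb after it, with scores of 104 and 83.4 in Tomato+ and 117 and 94.6 in Tomato- replicates 1 and 2. At chr2:136938601-136947400 scores were 116 and 85.0 in Tomato+ and 68.4 and 134 in Tomato- replicates 1 and 2, so the Tomato states overlapped. The next regions by rank were chr11:31268201-31274800 with scores of 62.8 to 116 over the 4 Tfh libraries and chr13:40823001-40830200 with 76.7 to 92.1. Beside the chr13 region lay islands of 5 libraries, 2 of Tfh cells (194 and 219) and 3 of non-Tfh cells (211 to 283), all outside it. Percentiles over these 4 regions ran from 16.9 to 68.5, and none had an island in a non-Tfh library.

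The other 6 of these 12 regions had mean percentiles of 39.3 to 42.3. With their Tfh scores they were chr12:120475401-120478200 (69.8 to 127), chr1:179605201-179608400 (66.8 to 101), chr8:79957801-79962600 (77.1 to 90.7), chr12:78766601-78770000 (72.7 to 97.6), chr13:28507801-28512600 (53.6 to 112) and chr12:74892401-74896600 (70.1 to 93.6). All 12 were kept at equal island number, but that setting cuts on the same score ranks that chose them, so this is no separate support. Over the 68 regions of this class the mean percentile ran from 5.49 to 58.0 with a median of 26.0, and the median over all 814 was 24.2. In regions with 3 Tfh libraries the mean leaves out the library without an island, so these medians are on unlike bases.

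**Figure D3:**
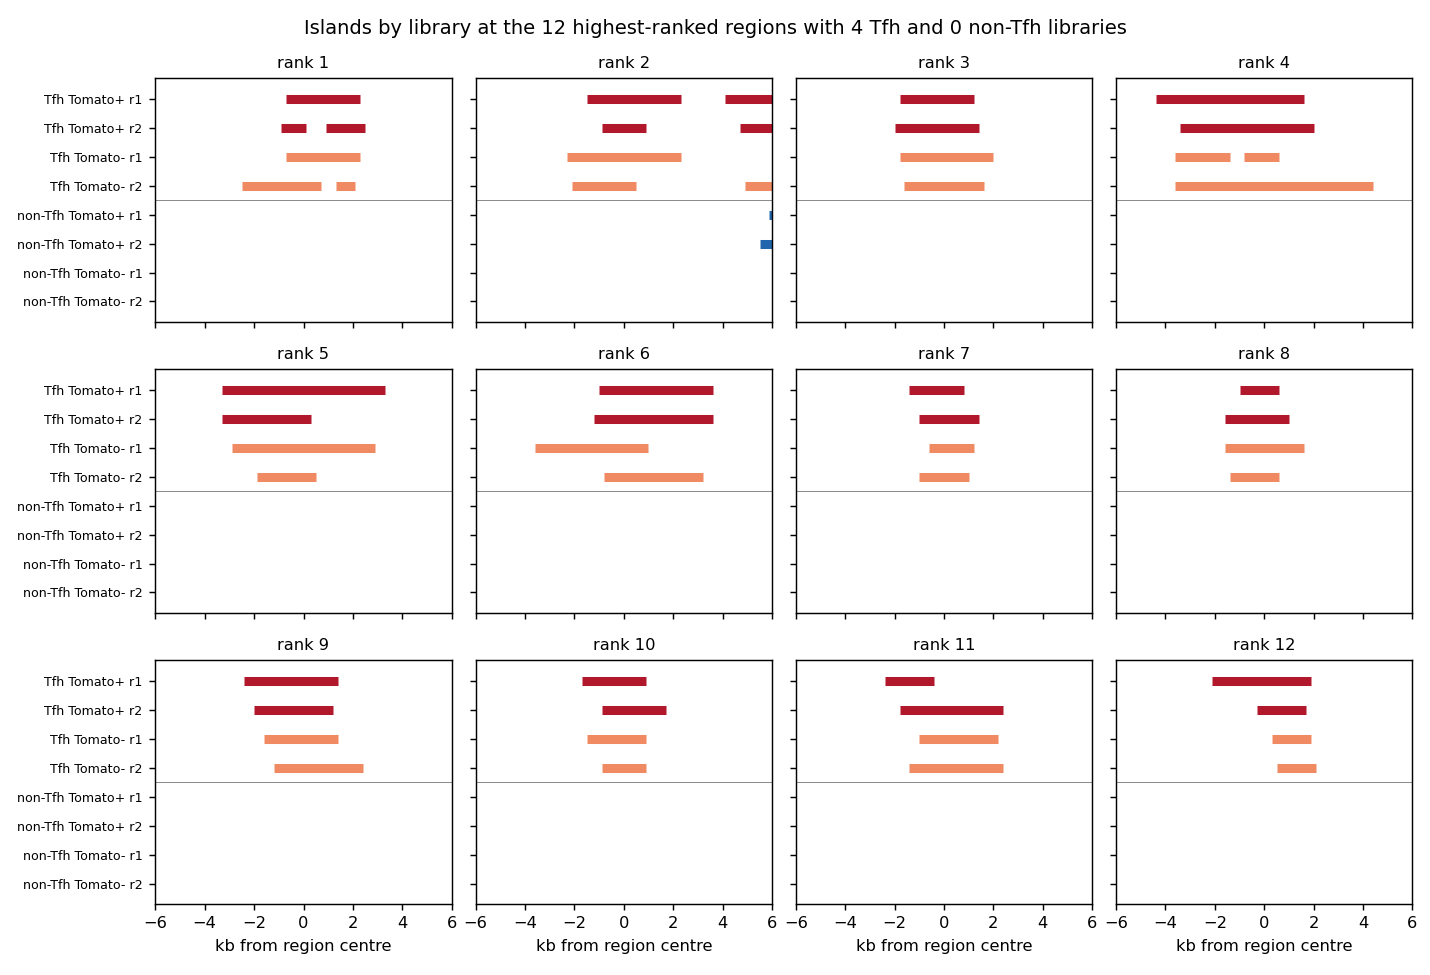
Islands (bars) of each of the 8 libraries along the 12 regions named by score, by distance from the region's centre in kb, ordered by mean score percentile over the Tfh libraries. Bars of the 4 Tfh libraries (red and orange) overlap near the centre, and the non-Tfh libraries (blue) have no island within the regions. In the panel of rank 2 the islands at the right edge belong to a neighbouring region. The islands beside the region of rank 6 lie beyond the left edge of its panel and are not drawn.

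Of the 5 widest Tfh-leaning regions 4 also had non-Tfh islands. The widest, chr17:13415801-13432000, spanned 16200 bp with scores of 79.1 to 158 in the 4 Tfh libraries, but non-Tfh Tomato+ replicate 1 (67.7) and non-Tfh Tomato- replicate 2 (104) also had islands. At chr14:69908401-69924200 (15800 bp) the highest score of all libraries, 124, was in non-Tfh Tomato- replicate 2, above the Tfh scores of 64.9 to 81.6. The same held at chr1:140732001-140746000 (14000 bp), with 102 in that library against 61.5 to 81.5 in Tfh cells. At chr7:46510401-46523000 (12600 bp) non-Tfh Tomato- replicate 1 scored 89.6 and the Tfh libraries 48.3 to 63.1. Scores of different libraries are not on one scale, but within the libraries these non-Tfh islands also stood higher, at percentile 60.4, 49.2 and 47.5 against at most 45.0, 44.9 and 31.4 in Tfh libraries. Only chr11:85647401-85660400 (13000 bp) had no non-Tfh island, with Tfh scores of 63.3 to 178 in 3 libraries.

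Tfh-leaning regions were spread over all autosomes. They made up 2.17% of merged regions on chromosome 13 (23 regions) to 4.51% on chromosome 12 (47 regions). The X chromosome had 3 of its 441 regions among them, 0.680% (exact 95% binomial interval 0.141% to 1.98%, covering counting error only), and chromosome Y none of 9. The mirrored rule kept 48 regions on the X chromosome (10.9%), the highest share of any chromosome other than Y, where it kept 1. X-linked islands made up 1.44% to 1.59% of islands in the Tfh libraries and 1.49% to 1.75% in the non-Tfh libraries, and the part of these totals in the low count was not tested.

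**Figure D4:**
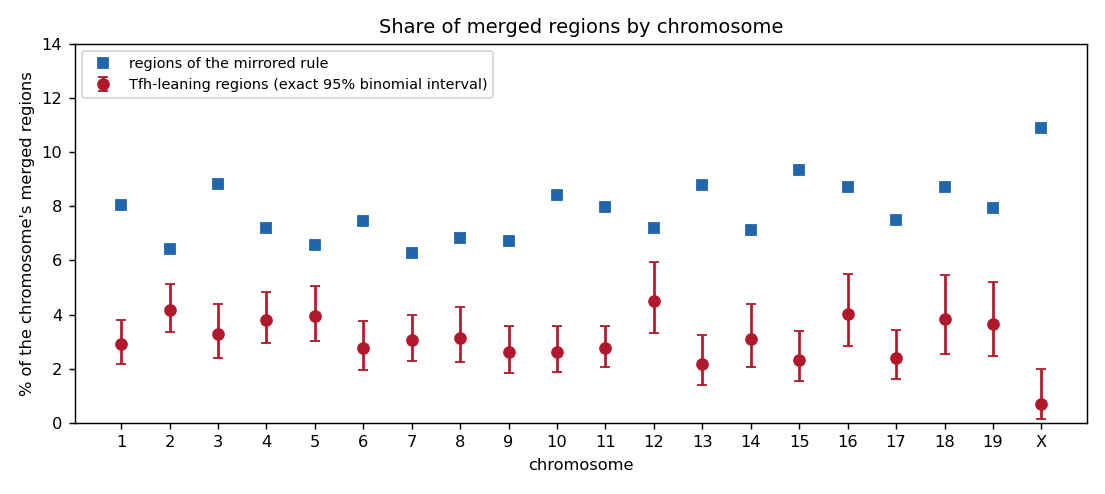
Percent of each chromosome's merged regions that are Tfh-leaning (red, with exact 95% binomial interval) or kept by the mirrored rule (blue squares); chromosome Y with 9 regions is left out. Autosomes lie between 2.17% and 4.51% for Tfh-leaning regions, and the X chromosome is at 0.680%.

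Some Tfh-leaning regions lay near each other. Within 50 kb of another one were 111 of the 814 (13.6%), against 7.82% of all merged regions with a Tfh-leaning neighbour in that distance. They stood farther from chromatin open everywhere: the median distance to the nearest other region with islands in all 8 libraries was 39.5 kb, against 19.0 kb for the mirrored rule and 25.4 kb for all merged regions, and 160 (19.7%), 632 (32.2%) and 7026 (27.3%) lay within 10 kb of one. Islands that touch are merged into 1 region, so island width enters these distances. How often regions of the mirrored rule lay near each other was not counted, so nearness cannot be called particular to Tfh-leaning regions.

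Of 1943 windows of 1 Mb with any region, 592 held a Tfh-leaning region, 35 held 3 or more and 2 held 5. The window chr12:74000001-75000000 had 5 of its 34 regions Tfh-leaning, 4 of them near each other and with islands in all 4 Tfh libraries: chr12:74823601-74830000, chr12:74845601-74848000, chr12:74854401-74858200 and chr12:74892401-74896600. The first and last of these had no non-Tfh island, and the middle ones had 2 each. The fifth, chr12:74210801-74215600, had 3 Tfh islands at a mean percentile of 5.46. The window chr11:116000001-117000000 also held 5, along with 5 regions of the mirrored rule, 18 of its 44 regions being open in all 8 libraries. Of the 11 windows with 4, the first named was chr2:25000001-26000000, where all 4 had 3 Tfh libraries and mean percentiles of 2.43 to 20.8.

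The lean was also counted within each Tomato state, as a description. More Tfh than non-Tfh libraries had an island within Tomato+ and within Tomato- cells at 595 of the 814 regions (73.1%). The rule fixes this for the 377 regions with 3 or 4 libraries between the populations, so the count was free only in the 437 with a difference of 2, of which 218 leaned in both states. At 170 regions (20.9%) the Tomato- libraries alone gave the lean, with equal numbers in Tomato+, and at 49 (6.02%) the Tomato+ libraries alone. A difference of 2 libraries was reached in both states at the 68 regions with 4 against 0, in Tomato- at 451 and in Tomato+ at 213.

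The rule counts Tfh and non-Tfh libraries without regard to Tomato, so rearranging the Tomato labels within a population leaves the same 814 regions, and the Tomato difference could be tested by such rearrangement. An island was present at 75.6% and 81.1% of the regions in Tfh Tomato+ replicates 1 and 2, and at 98.2% and 93.2% in Tfh Tomato- replicates 1 and 2. In non-Tfh cells it was present at 26.3% and 25.1% in Tomato+ and at 24.4% and 17.6% in Tomato- replicates 1 and 2. The Tfh Tomato+ libraries were thus both below the Tomato- ones, by 17.4 percentage points in the mean, while the non-Tfh Tomato+ libraries were both above theirs, by 4.67 points. Averaged over the populations the difference was -6.36 points (exact permutation test within populations, two-sided p = 0.333, adjusted over 4 comparisons 0.667). The difference between the populations was -22.1 points (exact permutation p = 0.0556, adjusted 0.222); with 36 arrangements 0.0556 is the smallest p this design allows, so it cannot reach 0.05.

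Neither difference kept its direction in every setting. With regions chosen anew at equal island number the difference between the populations was 18.2 points. There the Tfh libraries kept the order of the Tomato groups, and the non-Tfh order turned. The difference between the populations was 1.60, 3.39 and 1.73 points without Tfh Tomato+ replicate 1, Tfh Tomato- replicate 1 and Tfh Tomato- replicate 2. The mean difference was 0.0923, 3.01 and 3.74 points without non-Tfh Tomato+ replicate 1, non-Tfh Tomato+ replicate 2 and non-Tfh Tomato- replicate 1, and 0.527 points without Tfh Tomato+ replicate 2. Without a Tfh library the rule asks for an island in every Tfh library left, so no Tfh Tomato difference can remain. Those values hold the non-Tfh difference alone and cannot show whether the direction in Tfh cells was kept.

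In each population the Tomato group with more islands also had the higher shares, although within non-Tfh Tomato+ the replicate with more islands had the lower one. Counted against the library's own islands, those in Tfh-leaning regions were 4.42% and 4.36% in Tfh Tomato+ replicates 1 and 2 and 4.38% and 4.40% in Tfh Tomato- replicates 1 and 2. In non-Tfh cells they were 1.09% and 1.0% in Tomato+ and 1.13% and 0.961% in Tomato- replicates 1 and 2. On this scale the Tomato difference was -0.0049 points in Tfh and -0.0010 points in non-Tfh cells (exact permutation test of the mean, two-sided, p = 0.889, adjusted 0.944), within the spread between replicates. With 14084 islands in each library the share of the 814 regions with an island was 75.6% and 61.5% in Tfh Tomato+ and 63.6% and 60.4% in Tfh Tomato-, so the groups overlapped, and 6.02% and 5.53% in non-Tfh Tomato+ against 10.4% and 14.9% in non-Tfh Tomato-, the opposite order. This cut takes more islands from libraries that have more, and from the low end of scores, where islands of the set mostly lie. Larger falls in those libraries were therefore partly built in. Tomato state and island number cannot be told apart here. Lyz2 RNA was higher in the Tomato- groups of both populations, in Tfh cells the group with the higher shares and in non-Tfh cells the group with the lower shares, and its part was not tested.

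**Figure D5:**
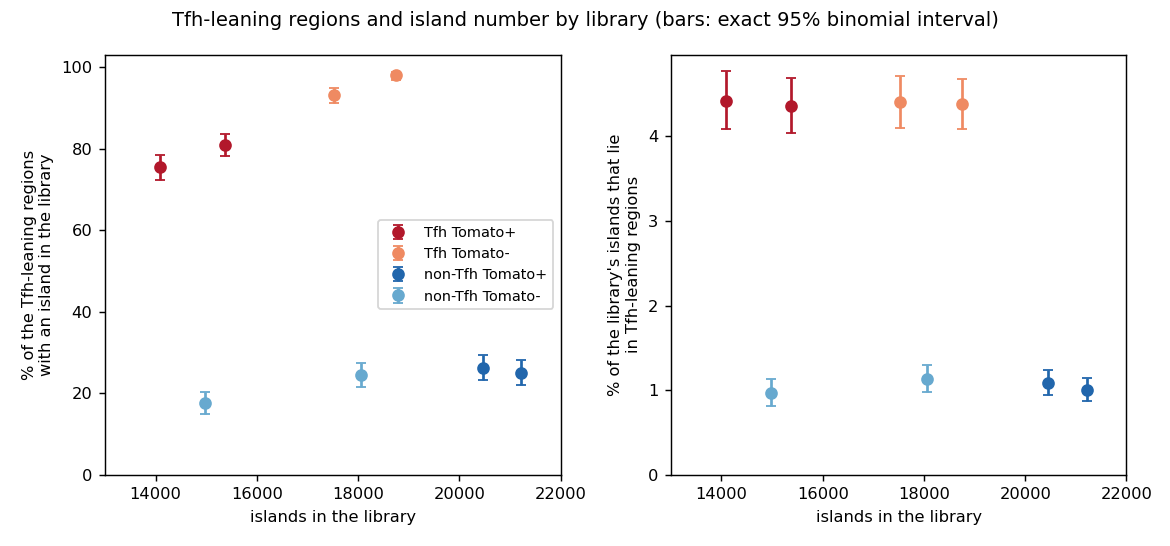
Left, percent of the 814 Tfh-leaning regions with an island in each library, and right, percent of each library's islands that lie in them. Both are plotted against the number of islands in the library, with exact 95% binomial intervals. These intervals cover counting error only, not the spread between libraries, and the rule chose the regions on these same islands. On the left Tfh Tomato+ libraries (75.6% and 81.1%) lie below Tfh Tomato- libraries (98.2% and 93.2%); on the right all 4 Tfh libraries lie between 4.36% and 4.42%.

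The Tfh library that was missing differed in frequency. Of the 423 regions with islands in 3 Tfh libraries, 199 (47.0%) lacked one in Tomato+ replicate 1 and 154 (36.4%) in Tomato+ replicate 2, against 15 (3.55%) and 55 (13.0%) in Tomato- replicates 1 and 2. Among the 1863 other regions with 3 Tfh libraries the shares were 53.0%, 27.1%, 8.91% and 11%. The Tfh libraries with the fewest islands were thus absent most often inside and outside the set.

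Islands of non-Tfh cells in the regions came from every library and group. Among the 330 regions with 1 non-Tfh library it was Tomato+ replicate 1 at 82, Tomato+ replicate 2 at 87, Tomato- replicate 1 at 107 and Tomato- replicate 2 at 54. Tomato- replicate 2 thus gave 16.4% of these islands, against 6.47% in the 3831 other regions with 1 non-Tfh library. Among the 215 regions with 2 non-Tfh libraries both Tomato+ replicates held the islands at 67 (31.2%), both Tomato- replicates at 33 (15.3%), and a Tomato+ with a Tomato- library at the rest, in 25 to 34 regions for each pair. In the 3354 other regions with 2 non-Tfh libraries the pair of Tomato+ replicates made up 63.6%. These shares are descriptions of regions that the rule sorted by their Tfh islands.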

How the data were processed

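DNase-accessible chromatin (8 libraries) and RNA (8 lymph node libraries) were used; 4 spleen RNA libraries were left out. Groups came from the sample labels. The deposited DNase tables list islands with the authors' own score. Per the deposited file names, duplicates had been removed, windows were 200 bp, gaps up to 400 bp were allowed and the E-value was 1. The submitters' processing notes list Bowtie2, SICER 1.1, CASAVA 2.18 and edgeR as tools, without roles, and mm9 as the build. Scores were ranked only within a library. RNA tables hold the authors' RPKM and deposited read counts (18177603 to 27604758 per library over transcript rows), used to check labels only, from the row with most reads for each gene.

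Islands that overlapped or touched were merged, and 1 bp of island counted as present. Positions are 1-based. The planned edgeR comparison of genes beside the regions was not run, because gene positions on mm9 were not used here. Shares were compared by exact permutation tests, two-sided, with Tomato labels rearranged within each population (36 arrangements) and Benjamini-Hochberg adjustment over 4 comparisons. Intervals are exact Clopper-Pearson (95%) and cover counting error only, with regions or islands counted as independent. Regions named were the 12 with 4 Tfh and 0 non-Tfh libraries and the highest mean score percentile, the 5 widest, members of the 3 windows of 1 Mb with most, and the first 4 in genome order on each side of the rule that 1 island in 1 library would have moved across it. The regions and rules were chosen with earlier results of these data known. Equal covered length, counts by the mirrored rule under other settings, shares of a library's own islands and the Tomato difference between populations were added after the data were seen. Python 3.11.15, numpy 2.4.6, pandas 2.3.3 and scipy 1.17.1 were used, and merging and the rule were tested on simulated data.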

Additional observations from a re-analysis of the deposited data

Results flagged for a closer look

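The Tomato difference in the share of Tfh-leaning regions with an island ran in opposite directions in the populations: -17.4 percentage points in Tfh libraries and 4.67 points in non-Tfh libraries, with every Tomato+ library on one side of every Tomato- library in each. The difference between the populations had an exact permutation p of 0.0556, the smallest that its 36 arrangements allow, and did not pass the threshold. The Tomato group with more islands had the higher share in each population. With regions chosen anew at equal island number the difference between the populations was 18.2 points, the opposite direction. The Tfh order was kept there, with 88.3% and 84.7% in Tomato+ against 93.8% and 90.8% in Tomato- replicates 1 and 2. The non-Tfh order turned, with 15.0% and 10.8% in Tomato+ against 28.1% and 45.7% in Tomato- replicates 1 and 2.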

How the results depend on the processing

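Of the settings for the number of Tfh-leaning regions (814), joining islands up to 400 bp apart gave 795. The count was 388 with islands at or above the median score, 215 with the highest 25% of scores, 1290 at equal island number, 353 at equal covered length, 2790 when islands had to cover at least 50% of a region, 377 with a difference of at least 3 libraries and 68 with 4 against 0. The mirrored rule (1964) gave 1054, 569, 987, 2356, 1311, 945 and 130 in the same order, so the Tfh count was larger than the mirrored one at equal island number and with 50% coverage. Without single libraries the count ran from 192 to 1626: 376 and 332 without Tfh Tomato+ replicates 1 and 2, 192 and 231 without Tfh Tomato- replicates 1 and 2, 1626 and 1535 without non-Tfh Tomato+ replicates 1 and 2, and 1489 and 1220 without non-Tfh Tomato- replicates 1 and 2. With 3 libraries in a population the same limits are stricter for it by construction.

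The mean Tomato difference (-6.36 points) kept its sign at equal island number with regions chosen anew (-14.9, exact permutation p = 0.0556), with islands at or above the median score (-9.21) and with islands joined (-6.42); without single libraries it ran from -5.82 to 3.74. The difference between populations (-22.1) was 18.2 at equal island number (p = 0.333, exact permutation) and ran from -35.8 to 3.39 without single libraries. The cause of these changes was not tested. Without a Tfh library the rule leaves no Tfh Tomato difference, so those values hold the non-Tfh difference alone. With labels swapped only within a replicate number (replicate block, 16 arrangements) the difference of -6.36 had an exact permutation p of 0.5 and that of -22.1 one of 0.125, the smallest possible. Same-numbered libraries showed little common deviation (correlations of -0.0425 to 0.0499 over regions). With 2 libraries per group this cannot tell whether they share animals or a preparation, which the labels do not state. The RNA comparison of genes beside the regions was not run. Read depth is unknown, and most islands of the set score below their library's median.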
